A study of Mus musculus with 15 samples.

Results

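The 10 genes described here encode filaggrin (Flg), filaggrin-2 (Flg2), hornerin (Hrnr), repetin (Rptn), loricrin (Lor), involucrin (Ivl), the transglutaminases Tgm1 and Tgm3, caspase-14 (Casp14) and the asparaginase Aspg. They were chosen by symbol as barrier genes, and each matched 1 of the 55487 rows of the count table. All 10 passed the filter on low counts that left 19006 genes for testing. RNA-Seq had been done on conjunctival tissue from female wild-type BALB/c mice aged 9 to 12 weeks (the labels spell the strain BALC/c). All mice had received MC903, a vitamin D analog, at 2.5 nmol per day for 7 days on the ear skin. The mice also received ovalbumin (OVA) in the same ear, by intradermal injections and a later application to its surface. Their eyes were then challenged once a day for 7 days, from day 18 to day 24. The PBS group was challenged with PBS, and its antibody label reads N/A. The isotype group and the anti–IL-4Rα group were challenged with OVA and given 25 mg/kg of an isotype control antibody or of anti–IL-4Rα on days 10, 14, 18 and 21. Each group had 5 libraries, with totals from 48622246 to 87745024 counts. Since the PBS group differed from the isotype group in challenge and in antibody, the effects of these cannot be told apart.

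Stratified epithelia that cornify replace the plasma membrane of their outermost cells with an envelope of cross-linked protein. Loricrin and involucrin are building blocks of this envelope, and the transglutaminases TGM1 and TGM3 join them by bonds between glutamine and lysine. Filaggrin, filaggrin-2, hornerin and repetin belong to the fused S100 proteins, which carry a calcium-binding head and many tandem repeats; filaggrin bundles keratin filaments and is later broken down to moisture-binding amino acids, a step in which caspase-14 takes part. Loss of filaggrin is a known risk factor for atopic dermatitis, and IL-4 and IL-13 are known to lower filaggrin and loricrin in cultured keratinocytes.

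Of the 10 genes, 6 lie within 1.32 megabases of chromosome 3 (GRCm38, chr3:92080271-93399442), the epidermal differentiation complex, in the order Lor, Ivl, Flg2, Flg, Hrnr and Rptn. The others lie on chromosome 2 (Tgm3), chromosome 10 (Casp14), chromosome 12 (Aspg) and chromosome 14 (Tgm1). The 150 bases before the annotated start of the 6 clustered genes are shown, because Rptn was called in both comparisons with the isotype group while Flg2, Flg, Hrnr and Lor were called in none. The sequences come from RefSeq (GRCm38.p6) and read from 5′ to 3′ toward the start. Capitals mark the letters TGANTCA, which cover the site of the AP-1 factors, and the TATA box letters TATAAA.
Flg2 (chr3:93197123-93197272, plus strand): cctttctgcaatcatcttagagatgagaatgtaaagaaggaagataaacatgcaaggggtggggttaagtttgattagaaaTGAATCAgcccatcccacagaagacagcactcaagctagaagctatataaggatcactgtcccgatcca
Flg (chr3:93273396-93273545, plus strand): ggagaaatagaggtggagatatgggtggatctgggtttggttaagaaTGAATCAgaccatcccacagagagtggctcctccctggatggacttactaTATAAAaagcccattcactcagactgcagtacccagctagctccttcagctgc
Hrnr (chr3:93319599-93319748, plus strand): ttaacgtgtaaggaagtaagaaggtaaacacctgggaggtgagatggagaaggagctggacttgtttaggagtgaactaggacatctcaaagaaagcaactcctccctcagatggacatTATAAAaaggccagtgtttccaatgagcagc
Rptn (chr3:93393549-93393698, plus strand): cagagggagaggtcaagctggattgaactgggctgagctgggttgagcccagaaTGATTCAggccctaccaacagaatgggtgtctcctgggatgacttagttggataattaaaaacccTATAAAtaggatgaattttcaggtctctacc
Lor (chr3:92083143-92083292, minus strand): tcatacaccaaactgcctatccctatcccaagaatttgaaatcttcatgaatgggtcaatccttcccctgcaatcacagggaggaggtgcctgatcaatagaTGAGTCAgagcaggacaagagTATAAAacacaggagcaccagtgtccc
Ivl (chr3:92573736-92573885, minus strand): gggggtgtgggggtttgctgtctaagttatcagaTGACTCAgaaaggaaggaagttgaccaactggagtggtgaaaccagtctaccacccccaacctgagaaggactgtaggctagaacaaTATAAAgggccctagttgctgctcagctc
Within the 250 bases before the start, searched on both strands, TGANTCA was present in 5 of the 10 genes (Lor, Ivl, Flg2, Flg and Rptn), against 6.75% of all 32851 promoters in the RefSeq table. Its middle base was G in Lor, C in Ivl, A in Flg2 and Flg, and T in Rptn. TATAAA was present in 6 of the 10 genes (Lor, Ivl, Flg, Hrnr, Rptn and Tgm3), against 12.4% of all promoters. The palindrome that the IL-4-activated factor STAT6 can bind, with 4 free bases between its arms, was in none of the 10 windows and in 5.85% of all promoters, which says only that these letters are not in these 250 bases. Flg and Flg2 shared the run ccatcccacaga, and in both it began 9 bases after the first base of TGAATCA. Flg2 and Aspg, which lie on different chromosomes, shared another run of the same length, 12 bases. Both motifs were present in Lor, which was not called, and in Rptn, which was. Lor had a log2 difference of -0.42 for isotype against PBS (edgeR adjusted p = 0.101), so the missing call does not show that it was unchanged. Whether these motifs go with the response of the genes was not tested.

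The labelled tissue was checked against its markers. The goblet cell mucin Muc5ac (994 to 2024 CPM, the counts scaled to library size with TMM factors) and the mucosal keratins Krt4 (516 to 1179 CPM) and Krt13 (554 to 1179 CPM) were present in all 15 libraries. Of the keratins of cornifying skin, Krt1 (3242 to 6603 CPM) and Krt10 (3943 to 8576 CPM) were higher still, and Krt2 (11.6 to 52.5 CPM) was far lower. The tissue thus held RNA of cornified epithelium beside that of a mucosa. How much of the 10 genes' RNA came from eyelid skin and how much from conjunctiva was not tested. The corneal keratin Krt12 lay between 0.695 and 47.2 CPM. In bulk tissue, fewer cells of a type and less RNA per cell cannot be told apart.

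Libraries also differed in the summed level of tissue markers in ways that moved with the groups, as the plot shows. The summed level of 10 lacrimal acinar markers, none of them at 0 in all libraries, spanned 135 to 62300.4 CPM over the PBS libraries, 166 to 39119.7 CPM over the isotype libraries and 1609.8 to 195563 CPM over the anti–IL-4Rα libraries, where 4 of 5 libraries exceeded every library of the other groups and replicate 3 did not. The 9 hair follicle markers summed to 7726 CPM in isotype replicate 2 and to 406 to 1407 CPM in the other 14 libraries. The 8 skeletal muscle markers summed to 8017 to 14615 CPM in PBS libraries and 4916 to 7445 CPM in isotype libraries, without overlap. Each is set beside the results that it moved with. The paper reports Lcn11, Obp1a and Mucl2, which are among the lacrimal markers, as increased by anti–IL-4Rα treatment. More lacrimal tissue in a sample and a response to treatment cannot be told apart here. A lacrimal score used as a covariate may therefore also take up part of a treatment effect.

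**Figure D1:**
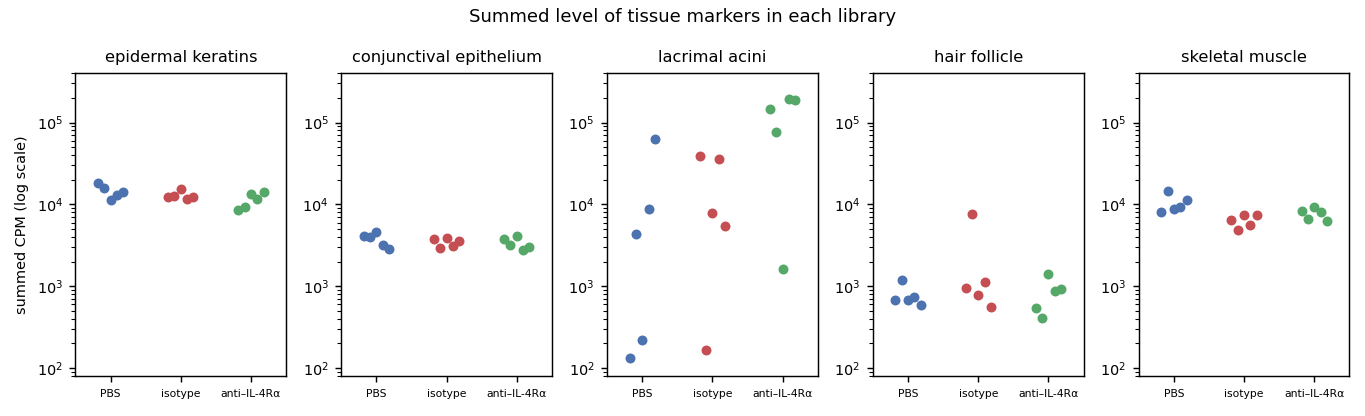
Summed CPM (log scale) of 5 marker lists in each of the 15 libraries, 1 point a library. The lacrimal acinar sum spans 135 to 195563 CPM and is highest in 4 anti–IL-4Rα libraries, whereas the epidermal keratins stay between 8529 and 18136 CPM.

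The levels of the 10 genes were compared with each other per kilobase of exon, in the PBS group (mean ± SD, n = 5). Lor was highest at 1398 ± 228 CPM per kilobase, followed by Flg (148 ± 29.3), Ivl (88.3 ± 7.07), Casp14 (57.0 ± 8.24), Rptn (52.3 ± 9.40), Flg2 (42.3 ± 9.59), Tgm1 (30.4 ± 3.97), Hrnr (30.2 ± 6.25), Tgm3 (12.5 ± 2.02) and Aspg (5.20 ± 1.19). Neighbors in this order from Casp14 to Hrnr overlapped between libraries, and the other neighbors did not. In the isotype group Rptn stood above Casp14, at 89.9 ± 12.2 against 78.5 ± 23.5 CPM per kilobase with overlapping libraries, and Flg2 stood below Tgm1 and Hrnr, at 30.9 ± 2.84 CPM per kilobase. Asprv1, which encodes the aspartic protease that trims filaggrin and is not the product of Aspg, stood near Lor at 1071 ± 161 CPM per kilobase.

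These levels depend on how much of each transcript can be mapped uniquely. Of all 90-base windows of the longest annotated transcript, 72.9% in Flg, 67.6% in Hrnr and 57.5% in Flg2 occurred again elsewhere in the same transcript. No window did so in Lor, Rptn, Ivl, Tgm1, Tgm3, Casp14 or Aspg. Since only uniquely mapped pairs of 90-base reads were kept, the levels per kilobase of the 3 repeat-rich genes may be too low, while comparisons of 1 gene between groups rest on the same windows throughout. Between genes, 3.4% of the Tgm1 windows were shared with Gm49067, an antisense gene at the same locus, and no window of the other 9 genes was shared with another gene. Hrnr and Rptn overlap the antisense lincRNA Gm37245, and the use of strand in counting is not stated. Rptn also overlaps Gm37857 on its own strand, and what part reads of Gm37857 had in the Rptn counts was not tested.

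**Figure D2:**
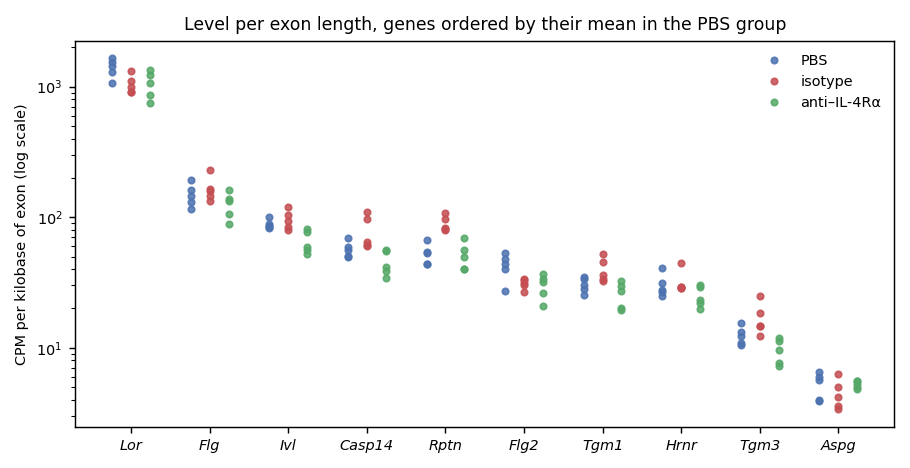
CPM per kilobase of exon (log scale) of each gene in each library, with genes ordered by their mean in the PBS group. Lor is the highest gene in all 3 groups and Aspg the lowest, and the points of neighbors from Casp14 to Hrnr overlap in the PBS group.

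Among Flg, Flg2, Hrnr and Rptn, the fused S100 genes of the 10, Rptn was the only one called. Repetin is a matrix protein of the cornified envelope whose repeats carry many glutamines. Rptn was at 276, 221, 224, 183 and 181 CPM in the PBS libraries, at 342, 404, 447, 333 and 337 CPM in the isotype libraries and at 206, 166, 288, 167 and 233 CPM in the anti–IL-4Rα libraries. All 5 isotype libraries lay above all 10 others. Rptn was 1.72-fold higher in the isotype than in the PBS group (95% interval 1.38 to 2.13, log2 0.78 ± 0.16 SE, edgeR adjusted p = 0.0072, exact permutation p = 0.00794). It was 1.76-fold lower with anti–IL-4Rα than with isotype (log2 -0.82 ± 0.16 SE, edgeR adjusted p = 0.00891, exact permutation p = 0.00794). The exact p is the smallest that 5 against 5 libraries allow. Between the anti–IL-4Rα and PBS groups the log2 difference was -0.04 ± 0.16, and the libraries overlapped (edgeR adjusted p = 0.927).

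The rise of Rptn over PBS was called in 14 of 15 other settings and in all 15 fits that left out 1 library. The exception had the skeletal muscle score as a covariate, in which the estimate stayed at a log2 of 0.78 and the adjusted p was 0.0862. The lower level with anti–IL-4Rα was called in all of these, with the log2 difference at -0.67 (adjusted p = 0.0136) when the lacrimal acinar score was a covariate.

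Flg2, Flg and Hrnr, which lie in the same cluster as Rptn, had no call in any comparison. Flg2, whose product is a filaggrin-like protein of the outer epidermis, was at 1099, 990, 570, 832 and 909 CPM in the PBS libraries, 554, 702, 689, 648 and 625 CPM in the isotype libraries and 431, 544, 694, 665 and 766 CPM in the anti–IL-4Rα libraries. Both OVA-challenged groups lay below 4 of the 5 PBS libraries, and PBS replicate 3 lay among them. The log2 difference was -0.45 ± 0.17 for isotype against PBS (edgeR adjusted p = 0.0825) and -0.51 ± 0.17 for anti–IL-4Rα against PBS (adjusted p = 0.0994), neither of which passed. Without PBS replicate 3 the former passed (log2 -0.57, adjusted p = 0.0247), and DESeq2 called both (adjusted p = 0.0455 and 0.0394). Between the OVA-challenged groups Flg2 differed by a log2 of -0.05 ± 0.17 (95% interval of the ratio 0.764 to 1.21).

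Flg ranged from 2180.1 to 3609 CPM (median 2725) over PBS libraries, 2506 to 4316 CPM (median 2971) over isotype libraries and 1659 to 3046 CPM (median 2517) over anti–IL-4Rα libraries. The groups overlapped in every comparison. The log2 difference was 0.16 ± 0.19 for isotype against PBS (edgeR adjusted p = 0.592) and -0.40 ± 0.19 for anti–IL-4Rα against isotype (adjusted p = 0.155). A processed pseudogene, Rplp0-ps1, lies on the same strand within the Flg locus, so its reads could be counted with Flg. Hrnr, the close relative of filaggrin in repeat structure, ranged from 279 to 454 CPM, 318 to 499 CPM and 220 to 338 CPM in the same order of groups. Isotype replicate 3 held the highest value and stood apart from the other 4 isotype libraries, which lay between 318 and 329 CPM. Hrnr differed by 0.09 ± 0.17 and -0.37 ± 0.17 on the log2 scale in the same comparisons (edgeR adjusted p = 0.753 and 0.141), and without isotype replicate 3 the former turned to -0.06.

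Of the envelope proteins, Ivl was called lower under blockade and Lor was not called. Lor was at 2930, 2736, 1887, 2310 and 2572 CPM in the PBS libraries, 1971, 1752, 2341, 1628 and 1626 CPM in the isotype libraries and 1323, 1528, 2165, 1880 and 2362 CPM in the anti–IL-4Rα libraries. Of the PBS libraries 3 lay above all isotype libraries, and the groups overlapped. The log2 difference from PBS was -0.42 ± 0.17 in the isotype group (edgeR adjusted p = 0.101) and -0.43 ± 0.17 in the anti–IL-4Rα group (adjusted p = 0.149), and neither passed. Between the OVA-challenged groups the ratio was 0.994 (95% interval 0.791 to 1.25).

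Ivl was at 193, 164, 170, 163 and 159 CPM in the PBS libraries, 161, 199, 232, 178 and 154 CPM in the isotype libraries and 108, 101, 148, 113 and 157 CPM in the anti–IL-4Rα libraries. All anti–IL-4Rα libraries lay below all PBS libraries, while 1 of them overlapped the isotype group. Ivl fell 1.48-fold with anti–IL-4Rα against isotype (95% interval of the ratio 0.565 to 0.812, log2 -0.56 ± 0.13, edgeR adjusted p = 0.019, exact permutation p = 0.0159). The call held in 13 of 15 fits that left out 1 library, and without isotype replicate 3 or anti–IL-4Rα replicate 1 the adjusted p was 0.0547 and 0.0519. It differed from PBS by a log2 of 0.12 ± 0.13 in the isotype group (adjusted p = 0.559) and -0.44 ± 0.13 in the anti–IL-4Rα group (edgeR adjusted p = 0.075, exact permutation p = 0.00794). The latter did not pass in edgeR over all genes, and passed in DESeq2 (adjusted p = 0.0251), in voom with quality weights (0.0409) and without anti–IL-4Rα replicate 3 (0.0343).

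Both cross-linking enzymes were lower with anti–IL-4Rα than with isotype. Tgm1, the membrane-bound transglutaminase that anchors the envelope and whose loss causes ichthyosis, was at 110, 107, 79.9, 88.4 and 95.4 CPM in the PBS libraries. It was at 103, 167, 144, 107 and 114 CPM in the isotype libraries and at 64.1, 61.9, 102, 93.3 and 85.9 CPM in the anti–IL-4Rα libraries. Every isotype library lay above every anti–IL-4Rα library, by a small gap at the nearest pair. Tgm1 fell 1.56-fold with anti–IL-4Rα (log2 -0.64 ± 0.16, edgeR adjusted p = 0.0246, exact permutation p = 0.00794), and the log2 difference of isotype from PBS was 0.40 ± 0.16 (adjusted p = 0.105). The lower level was called in 11 of 15 fits that left out 1 library. It was not called without isotype replicate 2 (log2 -0.52, adjusted p = 0.0627) or 3 (-0.59, 0.0655), without anti–IL-4Rα replicate 1 (-0.56, 0.0626) or 2 (-0.55, 0.0555), or with the replicate number as a block (-0.63, 0.0546).

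Tgm3, a soluble transglutaminase that acts on envelope proteins and in the hair follicle, was at 64.1, 54.5, 43.2, 45.0 and 51.0 CPM in the PBS libraries. It was at 51.3, 103, 76.0, 60.3 and 60.4 CPM in the isotype libraries and at 31.6, 30.2, 46.9, 49.3 and 39.6 CPM in the anti–IL-4Rα libraries. The highest value was in isotype replicate 2, the library with the highest hair follicle markers. Tgm3 fell 1.78-fold with anti–IL-4Rα (95% interval of the ratio 0.434 to 0.729, log2 -0.83 ± 0.19, edgeR adjusted p = 0.0168, exact permutation p = 0.00794). Without isotype replicate 2 it fell by 0.65 on the log2 scale (adjusted p = 0.0371), and the difference of isotype from PBS went from 0.44 ± 0.19 (adjusted p = 0.12) to 0.27 (adjusted p = 0.326).

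Casp14, a caspase of cornifying cells that does not serve apoptosis, was at 167, 141, 135, 118 and 121 CPM in the PBS libraries, 146, 233, 263, 143 and 154 CPM in the isotype libraries and 99.5, 81.8, 134, 92.9 and 132 CPM in the anti–IL-4Rα libraries. Isotype replicates 2 and 3 stood well above the rest, and all isotype libraries exceeded all anti–IL-4Rα libraries. Casp14 fell 1.74-fold with anti–IL-4Rα (95% interval of the ratio 0.443 to 0.745, log2 -0.80 ± 0.19, edgeR adjusted p = 0.0193, exact permutation p = 0.00794). The call held in 11 of 15 fits that left out 1 library. Without isotype replicate 2 or 3 the log2 difference was -0.71 and -0.65 (adjusted p = 0.0505 and 0.0549), and without anti–IL-4Rα replicate 1 or 4 it was -0.77 and -0.75 (adjusted p = 0.0503 and 0.0504). Its log2 difference of isotype from PBS was 0.46 ± 0.19 (adjusted p = 0.109). Aspg, the lowest of the genes, ranged from 13.7 to 22.9 CPM over PBS libraries, 11.9 to 22.2 CPM over isotype libraries and 16.9 to 19.6 CPM over anti–IL-4Rα libraries. It was the only member with a higher estimate under anti–IL-4Rα than under isotype, by a log2 of 0.22 ± 0.17 (edgeR adjusted p = 0.388), and its groups overlapped in every comparison.

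**Figure D3:**
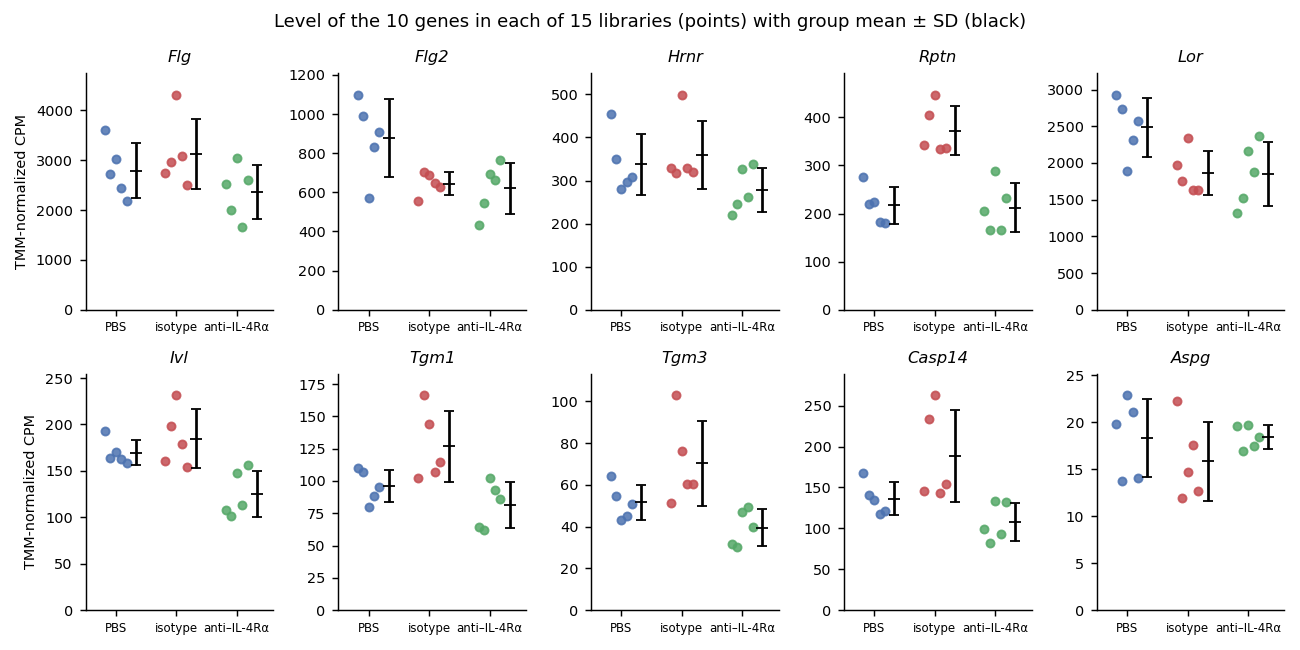
TMM-normalized CPM of each gene in the 15 libraries (colored points), with the mean and SD of each group of 5 in black. The 5 isotype points of Rptn, at 333 to 447 CPM, lie above all others, whereas the PBS points of Lor and Flg2 are mostly the highest of those genes.

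For the OVA challenge, 1 of the 10 genes was called higher in the isotype than in the PBS group and 0 were called lower, against 9.53% and 7.49% of the 19006 genes tested. At an unadjusted p under 0.05, 6 of the 10 differed, against 32.6% of all genes tested: Rptn, Tgm1, Tgm3 and Casp14 had higher estimates and Flg2 and Lor lower ones. The median log2 difference over the 10 genes was 0.14, and that of all genes tested was -0.0119. Only the libraries of Rptn did not overlap between these groups, against 6.85% of all genes that lay higher in every isotype library. DESeq2 called 2 of them, Rptn and Flg2, and 4273 of the 19006 genes tested. With the skeletal muscle score as a covariate 0 were called, against 657 of all genes tested. The epidermal keratin score was the mean log2 CPM of Krt1, Krt10 and Krt2. Of these, Krt10 and Krt2 had lower estimates in isotype than in PBS libraries. With the epidermal keratin score or the lacrimal acinar score 4 were called higher in each fit, Rptn, Tgm1, Tgm3 and Casp14. Over all genes tested, 1725 and 2467 were called higher in these fits, in that order. Which of these covariates gives the better estimate was not tested.

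For the blockade, 5 of the 10 genes were called lower with anti–IL-4Rα than with isotype (Rptn, Ivl, Tgm1, Tgm3 and Casp14), against 8.13% of all genes tested, and 0 were called higher, against 6.73%. At an unadjusted p under 0.05 Hrnr was also lower, which makes 6, against 16.9% of all genes lower at that threshold. The median log2 difference was -0.48 over the 10 genes and 0.00913 over all genes tested. The 4 genes with groups that did not overlap were Rptn, Tgm1, Tgm3 and Casp14, all lower, against 4.96% of all genes tested. The lacrimal acinar markers moved with this comparison. With their score as a covariate 585 of the 19006 genes tested were called lower, and of the 10 only Rptn remained called. The other estimates kept their direction and were somewhat smaller, at a log2 of -0.64 for Tgm3 (adjusted p = 0.0507), -0.63 for Casp14 (0.0575), -0.48 for Ivl (0.0586) and -0.51 for Tgm1 (0.0808). A fit to these 2 groups alone also left Rptn as the only call, with the estimates at -0.83 for Tgm3, -0.80 for Casp14, -0.56 for Ivl and -0.64 for Tgm1, as in the fit to 3 groups, and adjusted p from 0.0547 to 0.0663. In that fit 506 of 18570 genes were called lower. Leaving out isotype replicate 2 together with anti–IL-4Rα replicate 3 left 5, with 1579 of 18751 genes called lower.

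Between the anti–IL-4Rα and PBS groups, 0 of the 10 genes were called in either direction by edgeR, against 2.28% of all genes higher and 1.44% lower. At an unadjusted p under 0.05, 3 differed, Flg2, Lor and Ivl, all with lower estimates, against 23.1% of all genes in either direction. DESeq2 called 2 of these lower, Flg2 and Ivl, against 728 of the 19006 genes called lower in that fit. Only the libraries of Ivl did not overlap, lower with anti–IL-4Rα, against 3.12% of all genes. The median log2 difference was -0.31, against -0.00434 over all genes. These 3 comparisons share their groups, so a high isotype library raises the first and lowers the second together.

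**Figure D4:**
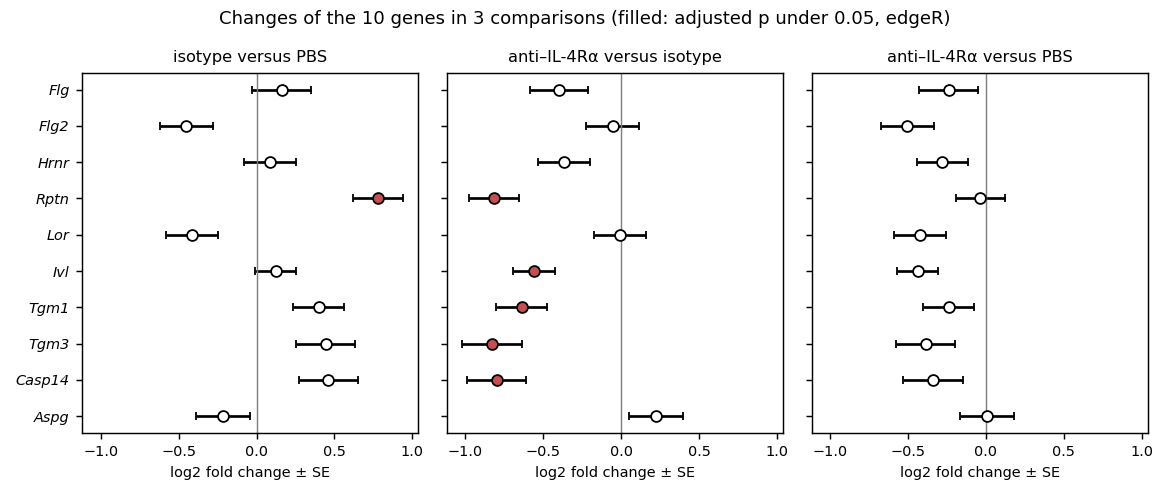
Log2 fold change ± SE of each gene in the 3 comparisons, each from 5 against 5 libraries. Filled points passed an adjusted p of 0.05 in edgeR: Rptn in the first comparison, Rptn, Ivl, Tgm1, Tgm3 and Casp14 in the second and none in the third.

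Since lacrimal RNA takes up part of a library, each gene was also expressed per 100 counts of Krt10, the suprabasal epidermal keratin, in the same library. This scale was chosen after the values had been seen; it needs no normalization factor, and Krt10 itself differed by a log2 of -0.29 ± 0.16 between isotype and PBS (edgeR adjusted p = 0.23) and -0.08 ± 0.16 between anti–IL-4Rα and isotype (adjusted p = 0.76). Rptn stood at 2.71 to 4.25 counts per 100 Krt10 counts in the PBS group, 6.27 to 7.28 in the isotype group and 3.07 to 5.21 in the anti–IL-4Rα group. It was thus 2.08-fold higher in the isotype group than in the PBS group, with no overlap (exact permutation p = 0.00794).

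Per Krt10, Hrnr, Tgm1, Tgm3 and Casp14 also separated the isotype group from both other groups. With Rptn these were 5 of the 10 genes, against 1.33% of all genes tested for which every isotype library lay above all others on this scale. That share covers genes of every tissue in the samples, and epithelial genes alone were not compared. Krt10 had a lower estimate in isotype than in PBS libraries, which raises every isotype ratio to it. Of the 5, only Rptn also separated these 2 groups by CPM. For Hrnr the log2 difference was 0.09 by CPM, with overlap, and 0.36 per Krt10. Hrnr went from 4.60 to 5.29 counts per 100 Krt10 counts in PBS to 5.73 to 7.71 in isotype and 4.80 to 5.64 with anti–IL-4Rα. Tgm1 was at 1.42 ± 0.0849, 2.27 ± 0.432 and 1.55 ± 0.178 (mean ± SD), and Casp14 ranged over 1.81 to 2.56, 2.67 to 4.20 and 1.71 to 2.52 in the same order. For these genes the ratio of isotype to PBS was 1.28-fold (Hrnr), 1.57-fold (Tgm1), 1.61-fold (Tgm3) and 1.62-fold (Casp14), each with an exact permutation p = 0.00794. Lor stood at 34.2 to 38.5, 31.1 to 36.2 and 33.6 to 35.6 counts per 100 Krt10 counts, and its groups overlapped in every comparison. Its ratio to Krt10 was 0.905 times that of PBS in the isotype group (exact permutation p = 0.0635), 0.952 times that of PBS with anti–IL-4Rα (p = 0.0873) and 1.05 times that of isotype with anti–IL-4Rα (p = 0.183). The ratio of Flg2 to Krt10 also overlapped between the groups in every comparison. In all, 30 such ratios were compared, and the p-values given are not adjusted.

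**Figure D5:**
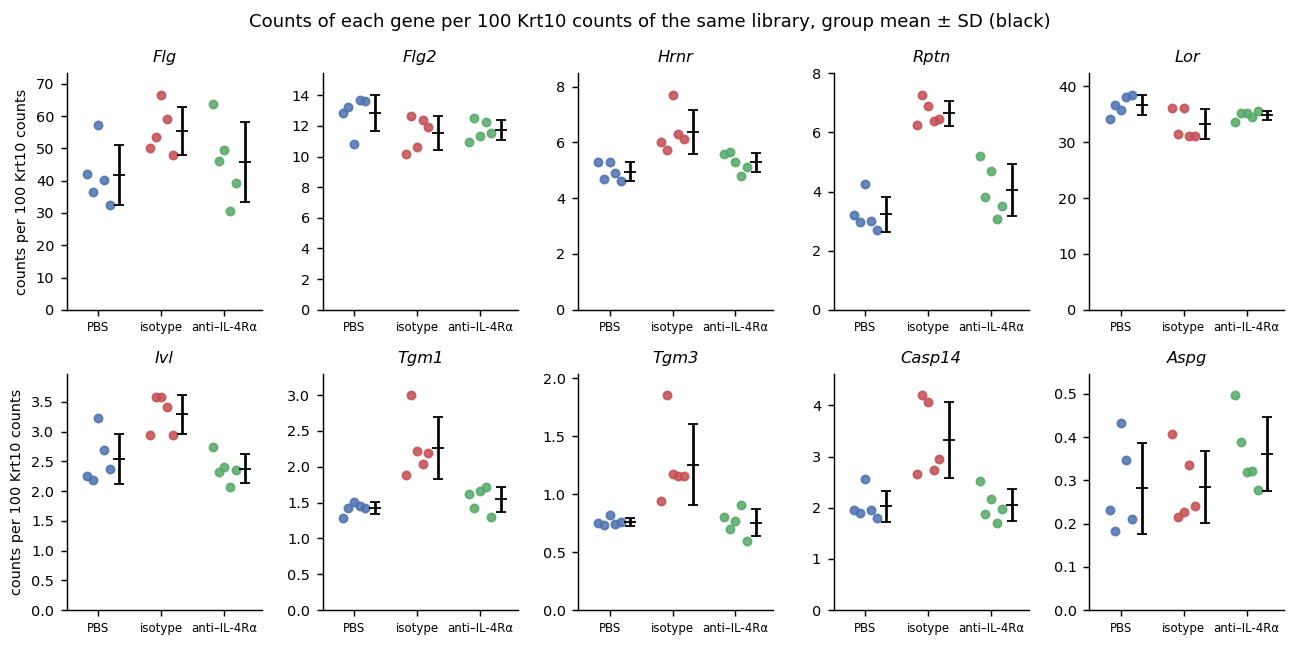
Counts of each gene per 100 Krt10 counts of the same library (points), with the mean and SD of each group in black. The isotype points of Hrnr, Rptn, Tgm1, Tgm3 and Casp14 lie above both other groups, and those of Lor span 31.1 to 36.2 against 34.2 to 38.5 in the PBS group.

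Across the 15 libraries, the deviations of the 10 genes from their group means (log2 CPM) were compared in 45 pairs, with the libraries permuted within groups. Of these, 39 pairs had a positive r, and 20 had a permutation p under 0.05 after adjustment over the pairs. Pairs of other genes were not compared in this way, so the count of 20 is not shown to be particular to the 10 genes. Tgm1 and Tgm3 gave the highest value (Pearson r = 0.960, Spearman rho = 0.961, adjusted permutation p = 0.000225 and 0.00045), and Flg went with Rptn (r = 0.903, rho = 0.882, adjusted permutation p = 0.000787 and 0.00232). Lor went with Hrnr (r = 0.878, rho = 0.911, adjusted permutation p = 0.000225 and 0.0006) and with Flg2 (r = 0.831, rho = 0.782, adjusted permutation p = 0.00309 and 0.0146). Without the 2 libraries farthest from the median of the first gene, these 4 values of r were 0.950, 0.899, 0.865 and 0.688. Flg did not pass with Flg2 (r = 0.160, rho = 0.30, adjusted permutation p = 0.656 and 0.376) or with Lor (r = 0.377, rho = 0.436, adjusted permutation p = 0.283 and 0.201). The libraries share their scale, and groups of 5 are too small to give a value within each. The genes whose profile was most like the mean of the 10 members over the 15 libraries were Cdsn (r = 0.972), Cpa4 (0.970), Lrch1 (0.962), Sdcbp2 (0.961) and Il1f5 (0.961).

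Over all genes tested, 9.53% were called higher in the isotype group than in the PBS group and 7.49% lower. Of 16 tested envelope proteins and linkers outside the 10 genes, 3 rose in the isotype group over PBS and 0 fell. These were Sprr1b (11.6-fold, from 15.2 ± 4.71 to 177 ± 75.1 CPM, edgeR adjusted p = 0.000177), Cnfn (1.58-fold, adjusted p = 0.05) and Sprr1a (1.34-fold, adjusted p = 0.0394), all building blocks of the envelope or its cytoplasmic border. With anti–IL-4Rα 6 fell against isotype and 0 rose, against 8.13% and 6.73% of all genes tested. Sprr1b, down to 16.9 ± 6.37 CPM (log2 -3.39, adjusted p = 0.000155), Cnfn, 2.01-fold lower (adjusted p = 0.0134), and Sprr3, at a log2 of -0.71 (adjusted p = 0.0446), changed most. The median log2 difference of the list was -0.04 in the first comparison and -0.27 in the second, and the numbers of calls in the 2 comparisons were not tested against each other. With the lacrimal acinar score as a covariate 4 were called higher in the first, and 3 lower in the second (Sprr1b, Cnfn and Sprr1a). The 3 other fused S100 genes, Crnn, Tchh and Tchhl1, had no call in any comparison. Their estimates were larger than those of Rptn, with a median log2 difference of 1.31 in the first comparison and -1.24 in the second, and in each the highest library was isotype replicate 2, with Tchh at 3461 CPM there and 260.1 to 502 CPM in the other isotype libraries. Of 6 other transglutaminase genes, 1 rose over PBS (F13a1, the blood clotting enzyme, 1.42-fold, adjusted p = 0.0213) and none changed in the other comparisons.

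Among 13 genes of filaggrin processing and breakdown, 0 were called in the isotype group over PBS. With anti–IL-4Rα against isotype, 2 fell and 1 rose, against 8.13% and 6.73% of all genes tested. Blmh, the hydrolase that takes deiminated filaggrin apart, fell by 0.60 on the log2 scale (edgeR adjusted p = 0.0159), Ctsh, a cathepsin, fell by 0.34 (adjusted p = 0.0481), and Prss8, a membrane-bound serine protease that acts on profilaggrin processing, rose by 0.34 (adjusted p = 0.0215). With the lacrimal acinar score as a covariate 0 of the 13 were called in this comparison. Furin was called higher with anti–IL-4Rα than in the PBS group (log2 0.45, adjusted p = 0.0255). It stood at 209, 238, 258 and 263 CPM in the 4 anti–IL-4Rα libraries with the highest lacrimal markers, at 174 CPM in replicate 3 and at 160 to 179 CPM in the PBS libraries, and with the lacrimal acinar score as a covariate its log2 difference was 0.37 (adjusted p = 0.107). Asprv1 showed a log2 difference of 0.06 ± 0.13 and -0.26 ± 0.13 in the first and second comparisons (adjusted p = 0.777 and 0.177).

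Of 13 genes of the lipid envelope, 1 rose over PBS, Ugcg, which makes glucosylceramide (1.43-fold, edgeR adjusted p = 0.0307). Over all genes tested, 9.53% were called higher in the isotype group over PBS. The share called lower with anti–IL-4Rα against isotype was 8.13%. With anti–IL-4Rα 4 fell against isotype: Ugcg (log2 -0.77, adjusted p = 0.0087), Sdr9c7 (-0.59), Cers3, the synthase of very long ceramides (-0.42), and Pnpla1 (-0.40); with the lacrimal acinar score as a covariate Ugcg alone was called (-0.68, adjusted p = 0.0273). Of 5 corneodesmosome and junction genes, 2 fell in the same comparison, Pkp1 (log2 -0.46, adjusted p = 0.0186) and Cdsn, which encodes corneodesmosin (-0.35, adjusted p = 0.0448), and with that covariate Pkp1 alone was called (-0.36, adjusted p = 0.0417). Among regulators of keratinocyte differentiation, Maf rose 1.41-fold over PBS (adjusted p = 0.0352) and Ovol1 1.30-fold (adjusted p = 0.0435). With anti–IL-4Rα against isotype, Ovol1 (log2 -0.61, adjusted p = 0.00976) and Grhl3 (-0.54, adjusted p = 0.0119) fell, and both were also called with the lacrimal covariate (adjusted p = 0.0276 and 0.0355). Maf is also expressed by macrophages, and the leukocyte gene Ptprc rose over PBS as well (2.07-fold, adjusted p = 0.00657). What part such cells had in the change of Maf was not tested.

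Markers of epithelial layers differed in how many were called. None of 6 epidermal keratins was called in the isotype group over PBS or with anti–IL-4Rα against isotype, and 1 of them, Krt80, was called lower with anti–IL-4Rα than in the PBS group (log2 -0.32, adjusted p = 0.0491). Krt2 had a log2 difference of -0.78 ± 0.30 from PBS in the isotype group (edgeR adjusted p = 0.0905), and Krt1 one of 0.01 ± 0.16 (adjusted p = 0.972). Of 10 conjunctival epithelial genes 0 were called over PBS. With anti–IL-4Rα against isotype 2 rose, Krt18 and Pax6, against 6.73% of all genes tested. Krt18, a keratin of simple epithelia and glands, was at 165, 129, 190 and 156 CPM in the 4 anti–IL-4Rα libraries with the highest lacrimal markers, at 67.2 CPM in replicate 3 and at 28.5 to 94.3 CPM in the isotype libraries. With the lacrimal acinar score as a covariate its log2 difference went from 1.16 (adjusted p = 0.0313) to 0.78 (adjusted p = 0.0423), and that of Pax6 from 0.43 (adjusted p = 0.039) to 0.37 (adjusted p = 0.119). Of 6 basal epithelial genes, 2 were called higher in the isotype group over PBS, against 9.53% of all genes tested. With anti–IL-4Rα against isotype 2 of the 6 were called lower, against 8.13%. In the basal layer, Krt14 went from 3182 ± 277 to 4664 ± 660 CPM in the isotype group (1.47-fold, adjusted p = 0.00694) and to 2775 ± 320 CPM with anti–IL-4Rα (log2 -0.75 against isotype, adjusted p = 0.00243). Of 8 skeletal muscle genes, 7 were called lower in the isotype group than in the PBS group, against 7.49% of all genes tested. Rptn rose in the same comparison.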

How the data were processed

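Female BALB/c conjunctival RNA had been prepared with a stranded polyA kit and sequenced as 90-base pairs. According to the methods, the authors trimmed adaptors, filtered at a quality score of 20 and kept pairs with a unique place in the B38 mouse genome, using Omicsoft Array Studio, its gene count report and the gene model of Ensembl release 100 (use of strand and the treatment of pairs that overlap several genes not given in the sources used here). The authors deposited estimated counts per gene, not scaled for depth; 6222 to 8005 values in each library carried a fractional part of any size, and all values were rounded. The methods mention 2 outlier samples without naming them, and all 15 libraries were kept. Groups and replicate numbers came from the labels, which number the libraries of each group but do not state that each comes from its own animal, so p-values measure the spread between these libraries. All 30 pairs within groups differed by more than sampling noise (chi-square per degree of freedom 19.3 to 1021), so none was counted as a repeat. Same-numbered libraries of different groups did not deviate together (r from -0.385 to 0.454 over 15 pairs, 4 of them above 0.1), so no pairing was used.

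Genes that reached 10 counts in 5 or more libraries were tested in edgeR 4.0.16 (R 4.3.3), with TMM factors, the quasi-likelihood test, 1 model for 3 groups and Benjamini-Hochberg adjustment over 19006 genes; a gene was called at an adjusted p under 0.05. The SE was derived from the F statistic. Single values were compared by exact permutation over 252 arrangements (two-sided), and correlations with 100000 permutations. Names, exon lengths and transcripts came from GENCODE M21 (GRCm38; 55227 identifiers matched), and upstream sequences from RefSeq, which held all 10 members. Alternatives included DESeq2 1.42.0, voom in limma 3.58.1, other scalings and filters, marker scores as covariates, the replicate block and leaving out libraries; the hair follicle covariate, the ratio to Krt10 and leaving out isotype replicate 2 and anti–IL-4Rα replicate 3 together were chosen after seeing the data. Scripts were tested on simulated data. The members and lists were chosen with earlier results of these data known. All members were named, with up to 3 called genes of the largest change from each list and comparison, a fixed set of tissue markers and the 5 genes most like the members; others were chosen after their values were seen. A gene of the list of differentiation regulators, and the counts over that list, are not reported here. Python 3.11.15 was used with scipy 1.17.1 (permutations), pandas 2.3.3 and matplotlib 3.10.9.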

Additional observations from a re-analysis of the deposited data

Results flagged for a closer look

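Within each group of 5 libraries, the highest and lowest level of each of the 10 genes was checked for a gap out of proportion to the group's range (Dixon's test, critical value 0.71). Of 30 groups checked, 1 exceeded it, and chance alone marks about 1 in 20. Hrnr in isotype replicate 3 stood at 499.2 CPM, with a gap to its nearest neighbor of 0.941 of the range. The other 4 isotype libraries lay between 318 and 329 CPM. Flg, Rptn, Lor, Ivl and Casp14 also had their highest value of the isotype group in that library.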

How the results depend on the processing

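Of 930 values recomputed under other settings, 875 kept their direction and their side of the threshold. For isotype against PBS, the number of the 10 genes called moved from 1 to 2 with DESeq2, to 4 with the epidermal keratin score or the lacrimal acinar score as a covariate and to 0 with the skeletal muscle score, and was 1 to 2 when 1 library was left out (2 without PBS replicate 3, where Flg2 was added). For anti–IL-4Rα against isotype it moved from 5 to 1 with a fit to those 2 groups, with the lacrimal acinar score as a covariate and at an adjusted p under 0.01, and was 2 to 5 when 1 library was left out (2 without isotype replicate 3 or anti–IL-4Rα replicate 1, 3 without isotype replicate 2). For anti–IL-4Rα against PBS it moved from 0 to 2 with DESeq2, 1 with voom and 1 without isotype replicate 2 and anti–IL-4Rα replicate 3 together, and was 0 to 1 when 1 library was left out (1 without anti–IL-4Rα replicate 3). Calls over all genes moved too. For anti–IL-4Rα against isotype they went from 2826 to 675 in the fit to those groups and 839 with the lacrimal acinar score. For isotype against PBS they went from 3235 to 657 with the skeletal muscle score, 4273 with DESeq2 and 4504 with the lacrimal acinar score. For anti–IL-4Rα against PBS they went from 707 to 1966 with DESeq2. The cause was not tested.

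Estimates near 0 changed sign. For anti–IL-4Rα against isotype, Lor (log2 -0.01) became 0.00425 with the lacrimal acinar score and 0.00963 with the hair follicle score, and was -0.112 to 0.0906 when 1 library was left out, and Flg2 (-0.05) became 0.00147 with the hair follicle score and was -0.142 to 0.0514 when 1 library was left out. For anti–IL-4Rα against PBS, Rptn (-0.04) became 0.18 with the epidermal keratin score and 0.20 with the lacrimal acinar score, and was -0.171 to 0.0663 when 1 library was left out. Aspg (0.01) became -0.0138 with upper quartile factors, -0.00628 with the lacrimal acinar score, -0.143 with the skeletal muscle score and -0.0159 without isotype replicate 2 and anti–IL-4Rα replicate 3, and was -0.0798 to 0.101 when 1 library was left out. Hrnr in isotype against PBS (0.09) was -0.0591 to 0.218 when 1 library was left out.

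With the replicate number as a block, 1, 4 and 0 genes were called in the 3 comparisons, Tgm1 being lost for anti–IL-4Rα against isotype (adjusted p = 0.0546). No library correlated best with the library of its own number in both other groups. Depth was not limiting, since the lowest count of any of the 10 genes in a library was 699.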
